A study of Danio rerio with 8 samples.

Results

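Cyclins A, B, D and E and the kinase cdk1 were followed through early zebrafish germ cell development. The set holds 10 genes chosen by symbol (ccna1, ccna2, ccnb1, ccnb2, ccnb3, ccnd1, ccnd2a, ccne1, ccne2 and cdk1) out of 31200 symbols in the deposited table. All 10 were among the 13984 genes tested. ccna1 is in the set because its level at the bud stage lies far below its level at the shield stage, so its stage differences are described here without a test. The other 9 are cdk1 and cyclins of types A, B, D and E, chosen with earlier results of these data known. Not every gene of those types is included, and ccnd2b is left out.

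The cells were primordial germ cells (PGCs), the embryonic precursors of eggs and sperm. Mutant embryos were pigu-/-, with both copies of pigu (a subunit of the GPI transamidase that puts lipid anchors on proteins) mutated, and the others were wild type (WT). Cells were taken at the bud stage, when gastrulation ends, and at the shield stage, early in gastrulation, in a study of PGC migration. Each of the 4 groups (mutant bud, WT bud, mutant shield, WT shield) had 2 libraries, called biological replicates by the submitters and made by SMART-seq2 from hand-picked GFP-positive cells, pooled by genotype after typing the remaining somatic cells. In every group, WT included, zygotes had been injected with mRNA coding for GFP joined to the nanos1 3′ UTR to mark PGCs. Tuebingen (Tu) and India fish and a Tg(kop:EGFP-nanos 3′UTR) line are named in the protocols, and which background belongs to which library is not given in the sources used here. The nature of the pigu allele, and whether the mothers carried it, is not given in the labels, and an extraction protocol shared by all samples speaks of oocytes. Pooling averages over the embryos of a pool, so p-values rest on the spread between pools, not between single embryos.

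Cyclins are regulatory subunits that bind and switch on cyclin-dependent kinases, and they are made and destroyed in turn as the cell cycle advances. D-type cyclins act with Cdk4 and Cdk6 in early G1, E-type cyclins with Cdk2 at the start of DNA replication, A-type cyclins during replication and entry into mitosis, and B-type cyclins with Cdk1 in mitosis. Eggs store cyclin mRNA that drives the fast cleavage divisions before the embryo's own genes are switched on. In Xenopus, cyclin A1 is the maternal A-type cyclin and cyclin A2 takes over as development goes on.

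The libraries differed in how much they detected. Between 5878 and 13007 genes reached an FPKM (fragments per transcript length and library size) of 1, the lowest being replicate 1 of mutant shield (5878) and replicate 1 of mutant bud (6708). Of 1768 genes with a median FPKM of at least 50, 50 and 53 were listed at 0 in that pair of libraries, against 1 to 9 in the other 6, so a value of 0 is given below as listed at 0. Entries of the mitochondrial genome held 17.3% to 72.2% of the FPKM. The mutated gene pigu had 0 and 7.32 FPKM in mutant bud, 2.78 and 14.6 in WT bud, 0.81 and 10.95 in mutant shield, and 11.5 and 15.0 in WT shield, so it was lower in the mutant without overlap at shield and overlapped at bud. Of 12 germ cell markers, 9 to 12 reached an FPKM of 1 in each library. Their summed FPKM were 16529 and 3297 in mutant bud, 8619 and 15688 in WT bud, 4659 and 33952 in mutant shield, and 6330 and 23271 in WT shield. Replicate 1 of both mutant groups had piwil1 at 0, and that of mutant bud also buc and rgs14a. Of 31 somatic markers, 30 reached an FPKM of 1 in mutant bud replicate 2, with a summed FPKM of 3182. In the other 7 libraries 14 to 20 did so, with sums of 127 to 803. Among them, mutant bud replicate 1 had a sum of 547, against 131 and 127 in WT bud. Mutant minus WT over both stages, 24 of 27 tested somatic markers were above 0 (median log2 difference 0.96), against a median of −0.42 over all genes. Below 0 were 12 of 12 germ cell markers (−0.69) and 71% of all genes. By stage, 27 of 27 somatic markers were above 0 at bud (median 2.15) and 14 of 27 at shield (median 0.0). Germ cell markers below 0 were 10 of 12 at bud (−0.64) and 9 of 12 at shield (−0.515). The part that these differences have in the values below was not tested.

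B-type cyclins were the most abundant class in every library. As a share of FPKM outside the mitochondrial genome, the 8 cyclins other than ccna1 had lower sums at bud than at shield. Outside the mitochondrial genome, those 8 held 0.198% and 0.122% of the FPKM in mutant bud, against 0.279% and 0.252% in WT bud. At shield they held 0.371% and 0.374% in mutant, against 0.5135% and 0.549% in WT. The 4 groups did not overlap on this scale. In summed FPKM bud and shield overlapped over all libraries and within mutant, but not within WT. Mutant shield replicate 1 had 983.7 with its 187.8 of ccna1 counted in. Mutant bud replicate 1, with ccna1 listed at 0, had 947.4, and the WT bud libraries had 1398.4 and 1278.9 with ccna1. The WT shield libraries had 2386.2 and 3175.0 with ccna1, of which ccna1 was 549 and 609. With ccna1, which was chosen for its stage difference, the sums were 0.123% to 0.284% at bud and 0.449% to 0.680% at shield. In pooled cells, fewer cells of a type and less RNA per cell cannot be told apart. B-type genes made up 46.5% to 65.5% of the cyclin sum and A-type genes 16.5% to 33.3%. E-type genes made up 14.9% and 7.93% in mutant bud, against 2.12% and 4.39% in WT bud. At shield the E-type share was 10.8% and 10.4% in mutant, against 4.72% and 7.17% in WT. Mutant libraries thus had the larger E-type share at both stages, with no overlap. Summed E-type FPKM were 140.7 and 58.05 in mutant bud, against 29.58 and 56.17 in WT bud. At shield these sums overlapped, with 106.6 and 229.1 in mutant, against 112.7 and 227.7 in WT. The B-type sums at shield were 601 and 1028 in mutant, against 1479 and 1738 in WT, so the share there does not show a higher E-type level. At bud the B-type sums were 515.6 and 405.1 in mutant, against 915.3 and 805.6 in WT. The nearest E-type sums at bud, 58.05 in mutant and 56.17 in WT, were close. The bud share alone thus does not show a higher E-type level either. These shares compare genes within a library and do not depend on how libraries are scaled to each other. They were chosen after the values were seen and carry no test.

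**Figure D1:**
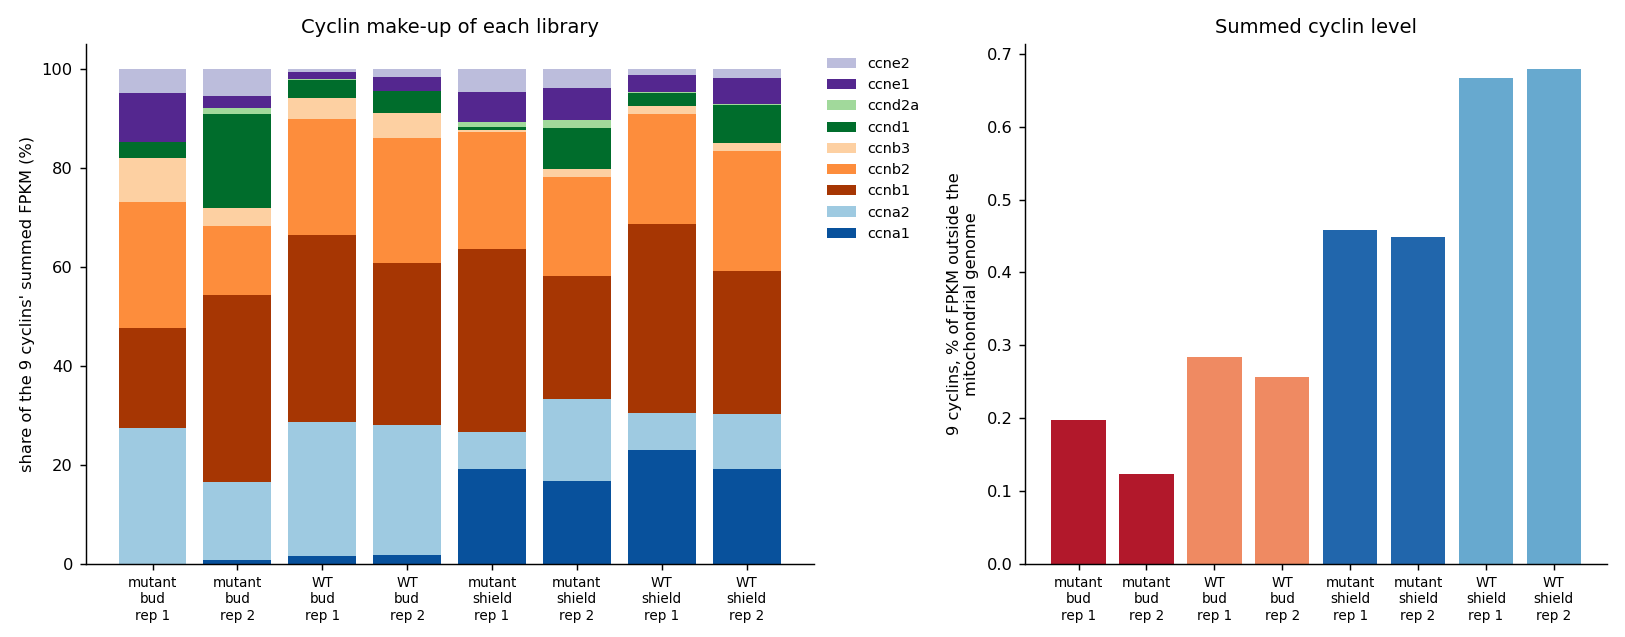
Left, share of each of 9 cyclin genes in their summed FPKM (%) in each of the 8 libraries, and right, the same sum as a percentage of all FPKM outside the mitochondrial genome. The dark blue ccna1 segment takes 16.8% to 23.0% in the 4 shield libraries and 0% to 1.77% in the 4 bud libraries, while the bars on the right, which include ccna1, step up from mutant bud to WT shield.

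ccna1, the A-type cyclin that in mouse works mainly in the male germ line, separated the 4 groups fully. Replicate 1 of mutant bud listed it at 0 and replicate 2 had 5.09 FPKM, against 22.6 and 22.6 in WT bud. At shield it had 188 and 371 FPKM in mutant, against 549 and 609 in WT. The order was WT shield, mutant shield, WT bud, mutant bud. Each neighbour in that order lay outside the range of the next. In WT shield ccna1 stood above 99.3% and 99.5% of the tested genes, and in WT bud above 73.6% and 69.9%. On the log2(FPKM + 1) scale the bud minus shield difference was −6.75 in mutant and −4.62 in WT. These stage values are what ccna1 was chosen for, so they support nothing further.

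No genotype was named in that choice, yet the genotype difference of ccna1 draws on the same libraries as its stage values. The genotype difference is therefore not independent of the choice. It was −3.26 at bud (mutant minus WT, SE 1.05, limma adjusted p = 0.959) and −1.13 at shield (SE 1.05, adjusted p = 1). Over both stages it was −2.19 (SE 0.74, unadjusted p = 0.00945, adjusted p = 0.983). All 4 mutant libraries lay below both WT libraries of their stage, yet the gene did not pass the test. With the library of fewest genes (replicate 1 of mutant shield) and that of most somatic marker signal (replicate 2 of mutant bud) left out, the bud difference was −4.56 and passed (adjusted p = 0.0372). In that setting each mutant group is a single library, assumed to vary like the WT groups, the mutant bud library left is the one that lists ccna1 and 53 well-expressed genes at 0, and 1.78% of 13325 genes were called. Without replicate 1 of mutant bud the bud difference was −1.96 (adjusted p = 1), and without replicate 1 of mutant shield the shield difference was −0.64 (adjusted p = 1).

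ccna2, the A-type cyclin of dividing somatic cells in vertebrates, was abundant at both stages. Its FPKM were 260.5 and 116 in mutant bud, 378 and 336.5 in WT bud, 73.3 and 365 in mutant shield, and 177 and 352 in WT shield. The stages overlapped in both genotypes. Its bud minus shield difference was 0.08 in mutant (SE 0.86, limma adjusted p = 1) and 0.51 in WT (SE 0.86, adjusted p = 1). The mutant value turned to −1.07 without mutant shield replicate 1 and to −0.50 without mutant bud replicate 1. Between genotypes ccna2 stood lower in mutant at bud without overlap (−1.03, SE 0.86, adjusted p = 0.959), with −1.62 without mutant bud replicate 1 and −0.45 without replicate 2. At shield the groups overlapped (−0.60, SE 0.86, adjusted p = 1), and without mutant shield replicate 1 the difference was 0.55. Of A-type FPKM, ccna1 supplied 0% and 4.21% in mutant bud, against 5.64% and 6.30% in WT bud. At shield it supplied 71.9% and 50.4% in mutant, against 75.7% and 63.4% in WT. This stage difference restates the one ccna1 was chosen for.

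**Figure D2:**
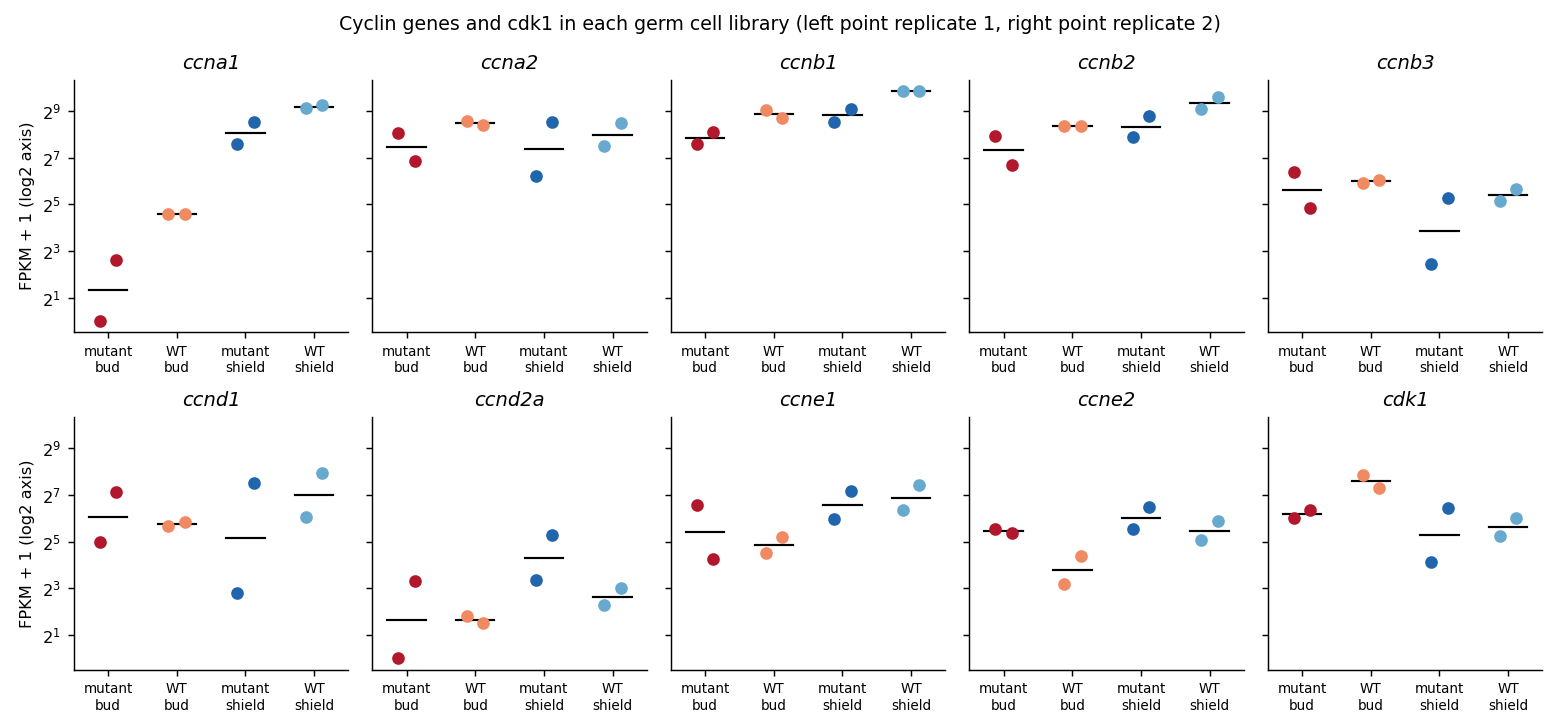
FPKM + 1 (log2 axis) of the 9 cyclin genes and cdk1 in each library, 2 points per group with a bar at the mean of the log2 values. ccna1 separates all 4 groups, ccnb1 and ccnb2 lie lower in the mutant at each stage, and cdk1 is highest in WT bud.

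ccnb1 and ccnb2, the mitotic B-type cyclins, were among the most abundant mRNAs of these cells. ccnb1 had 190.3 and 276 FPKM in mutant bud, against 528 and 418 in WT bud. At shield it had 364 and 548 FPKM in mutant, against 909.5 and 917 in WT. Mutant libraries lay below WT libraries at each stage, and bud libraries below shield libraries in each genotype. ccnb2 had 242 and 102 FPKM in mutant bud, against 327.5 and 323 in WT bud. At shield ccnb2 had 232 and 442 in mutant, against 535 and 771 in WT. It too was lower in the mutant at both stages without overlap, while its stages overlapped in the mutant.

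The mutant minus WT differences of this pair were below 0 at both stages, by amounts that depended on single libraries, more so for ccnb2. For ccnb1 they were −1.03 at bud (SE 0.64, limma adjusted p = 0.959) and −1.03 at shield (SE 0.64, adjusted p = 1). For ccnb2 they were −1.05 at bud (SE 0.72, adjusted p = 0.959) and −0.9995 at shield (SE 0.72, adjusted p = 1). Without mutant bud replicate 2 the bud values were −1.30 for ccnb1 and −0.42 for ccnb2, and without mutant bud replicate 1 they were −0.76 and −1.67. Without mutant shield replicate 1 the shield values were −0.74 for ccnb1 and −0.54 for ccnb2, and without mutant shield replicate 2 they were −1.32 and −1.46. Over both stages ccnb1 had −1.03 (95% interval −2.00 to −0.07, unadjusted p = 0.0377, adjusted p = 0.983) and ccnb2 −1.02 (−2.11 to 0.07, unadjusted p = 0.0634, adjusted p = 0.983). Over all tested genes the median of that difference was −0.42, and 71% of genes were below 0. Relative to that median the values were −0.62 and −0.61. Both stayed below 0 when FPKM were scaled by median of ratios (−0.77 for each), by quantiles (−0.96 and −0.82) or without mitochondrial entries (−0.92 and −0.91). The limma unadjusted p of ccnb1 depended on the libraries included and on the scaling, with 0.139, 0.0134 and 0.0273 for the scalings in that order. By stage, ccnb1 had a bud minus shield difference of −0.96 in mutant (SE 0.64, adjusted p = 0.76) and −0.96 in WT (SE 0.64, adjusted p = 1). ccnb2 had −1.03 in mutant (SE 0.72, adjusted p = 0.764), or −0.40 without mutant bud replicate 2, and −0.98 in WT (SE 0.72, adjusted p = 1).

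ccnb3, a B-type cyclin needed in meiosis of mouse eggs, had lower FPKM than either in every library. It had 83.2 and 27.4 FPKM in mutant bud, against 59.6 and 65.0 in WT bud. At shield it had 4.50 and 38.0 in mutant, against 34.6 and 50.02 in WT. WT bud lay above WT shield without overlap (0.57, SE 1.16, limma adjusted p = 1), and in the mutant the stages overlapped (1.74, SE 1.16, adjusted p = 0.76). The WT difference was near the median of all tested genes (0.51), and 29.1% of those genes were higher at bud without overlap. Between genotypes the libraries overlapped at bud (−0.37, SE 1.16, adjusted p = 0.993) and at shield (−1.54, SE 1.16, adjusted p = 1). The bud value turned to 0.41 when replicate 2 of mutant bud was left out, and the shield value was −0.13 when replicate 1 of mutant shield was.

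cdk1, the kinase that B-type and A-type cyclins activate, did not share the lower bud level of ccnb1. Its FPKM were 63.1 and 80.2 in mutant bud, against 229 and 157.5 in WT bud. At shield cdk1 had 16.5 and 84.9 in mutant, against 36.45 and 63.9 in WT. WT bud stood above every other group. The bud minus shield difference was 1.95 in WT (SE 0.98, limma unadjusted p = 0.0643, adjusted p = 1) and 0.90 in mutant (SE 0.98, adjusted p = 0.826), where the stages overlapped and the value was −0.25 without mutant shield replicate 1. The difference of these 2 stage effects was −1.06 (interaction, SE 1.39, adjusted p = 1). At bud the mutant minus WT difference was −1.40 (SE 0.98, adjusted p = 0.959), with no overlap, and at shield −0.35 (SE 0.98, adjusted p = 1). The shield value was 0.80 without mutant shield replicate 1 and 0.05 without WT shield replicate 2.

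ccnb1 and cdk1 were also set against each other within a library. The ratio of ccnb1 to cdk1 FPKM was 3.02 and 3.44 in mutant bud, against 2.31 and 2.65 in WT bud. At shield it was 22.1 and 6.45 in mutant, against 24.95 and 14.4 in WT. All 4 bud libraries lay below all 4 shield libraries. The genotypes overlapped at shield, and at bud the mutant libraries lay above the WT libraries. The ratio was chosen after the values were seen and carries no test.

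**Figure D3:**
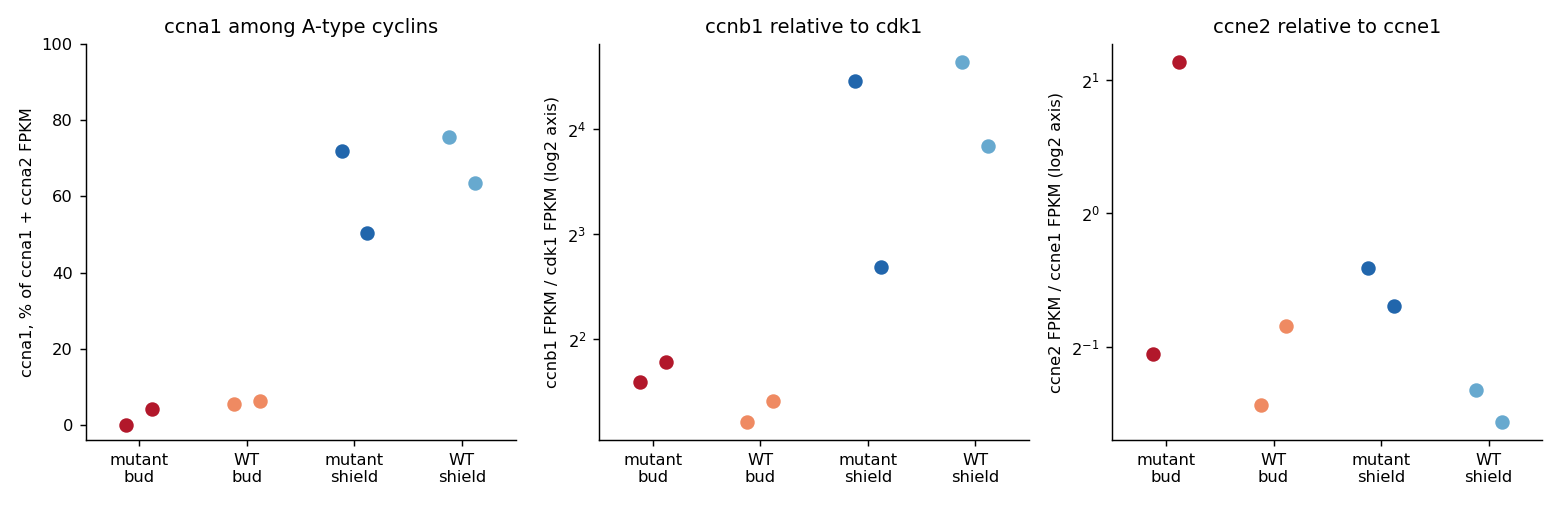
Ratios within a library, 2 points per group: ccna1 as a percentage of A-type FPKM (linear axis), ccnb1 over cdk1 and ccne2 over ccne1 (log2 axes). The A-type share is 0% to 6.30% at bud and 50.4% to 75.7% at shield, and the ccnb1 to cdk1 ratio is 2.31 to 3.44 at bud and 6.45 to 24.95 at shield.

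ccne1 and ccne2, the E-type cyclins that act with Cdk2 at the start of replication, stood lower at bud than at shield in WT. ccne1 had 94.98 and 18.2 FPKM in mutant bud, against 21.6 and 36.1 in WT bud. At shield ccne1 had 60.9 and 142 in mutant, against 80.6 and 170.3 in WT. Genotypes overlapped at both stages, and the 2 mutant bud libraries enclosed the WT bud values. ccne2 had 45.8 and 39.9 FPKM in mutant bud, against 7.98 and 20.1 in WT bud. At shield ccne2 had 45.8 and 87.35 in mutant, against 32.1 and 57.4 in WT. It was thus higher in mutant than in WT at bud without overlap, and the groups overlapped at shield.

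The bud minus shield difference of ccne1 was −2.03 in WT (SE 1.04, limma unadjusted p = 0.0696, adjusted p = 1), at percentile 1.8 of all tested genes, and −1.13 in mutant (SE 1.04, adjusted p = 0.796), or 0.0305 without mutant bud replicate 2. For ccne2 it was −1.68 in WT (SE 1.05, adjusted p = 1) and −0.56 in mutant (SE 1.05, adjusted p = 0.927). Mutant minus WT, ccne2 had 1.67 at bud (SE 1.05, adjusted p = 0.959), or 1.05 without WT bud replicate 1, and 0.55 at shield (SE 1.05, adjusted p = 1). Over both stages it had 1.11 (95% interval −0.47 to 2.69, adjusted p = 0.983), at percentile 96.9 of all tested genes. ccne1 had 0.57 at bud (SE 1.04, adjusted p = 0.98), which was −0.60 without mutant bud replicate 1. At shield it had −0.33 (SE 1.04, adjusted p = 1), which was 0.27 without mutant shield replicate 1 and 0.20 without WT shield replicate 2. The ratio of ccne2 to ccne1 was 0.482 and 2.197 in mutant bud, against 0.369 and 0.558 in WT bud, and 0.752 and 0.616 in mutant shield, against 0.399 and 0.337 in WT shield. Genotypes were apart on this ratio at shield and overlapped at bud. As a share of the cyclin sum, ccne2 was higher in mutant at both stages. The share was 4.83% and 5.45% in mutant bud, against 0.571% and 1.57% in WT bud. In mutant shield it was 4.65% and 3.95%, against 1.35% and 1.81% in WT shield. Summed B-type FPKM were lower in mutant at both stages, so the share alone does not show a higher ccne2 level.

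ccnd1 and ccnd2a, D-type cyclins that link growth signals to G1, had wide gaps between replicates. ccnd1 had 30.6 and 139 FPKM in mutant bud, against 50.2 and 56.1 in WT bud. At shield ccnd1 had 5.95 and 179.9 in mutant, against 64.9 and 241 in WT. WT bud lay below WT shield without overlap (−1.22, SE 1.33, limma adjusted p = 1), and the other genotype and stage comparisons overlapped. The 139 FPKM of mutant bud replicate 2 belong to the library with the highest somatic marker sum (3182), and the 5.95 of mutant shield replicate 1 to the library with the fewest genes. The higher values of 241 in WT shield replicate 2 and 179.9 in mutant shield replicate 2 came with somatic sums of 803 and 741. The part of somatic signal or detection in these values was not tested. The genotype difference of ccnd1 was 0.30 at bud (SE 1.33, adjusted p = 1), or −0.78 without mutant bud replicate 2. At shield it was −1.83 (SE 1.33, adjusted p = 1), or 0.52 without mutant shield replicate 1. By stage in the mutant it was 0.91 (SE 1.33, adjusted p = 0.887), or −1.45 without mutant shield replicate 1 and −0.17 without mutant bud replicate 2.

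ccnd2a, another D-type cyclin, had under 10 FPKM in 7 of 8 libraries. Its mutant bud libraries were listed at 0 and at 8.92 FPKM, against 2.48 and 1.87 in WT bud. At shield ccnd2a had 9.07 and 37.4 in mutant, against 3.82 and 7.10 in WT. Mutant shield thus stood above WT shield without overlap (1.65, SE 1.65, limma adjusted p = 1), and both genotypes were lower at bud than at shield without overlap (−2.64 in mutant, SE 1.65, adjusted p = 0.759, and −0.98 in WT, SE 1.65, adjusted p = 1). At bud the genotype groups overlapped (−0.0067, SE 1.65, adjusted p = 1), with 1.65 without mutant bud replicate 1 and 0.13 without WT bud replicate 1.

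**Figure D4:**
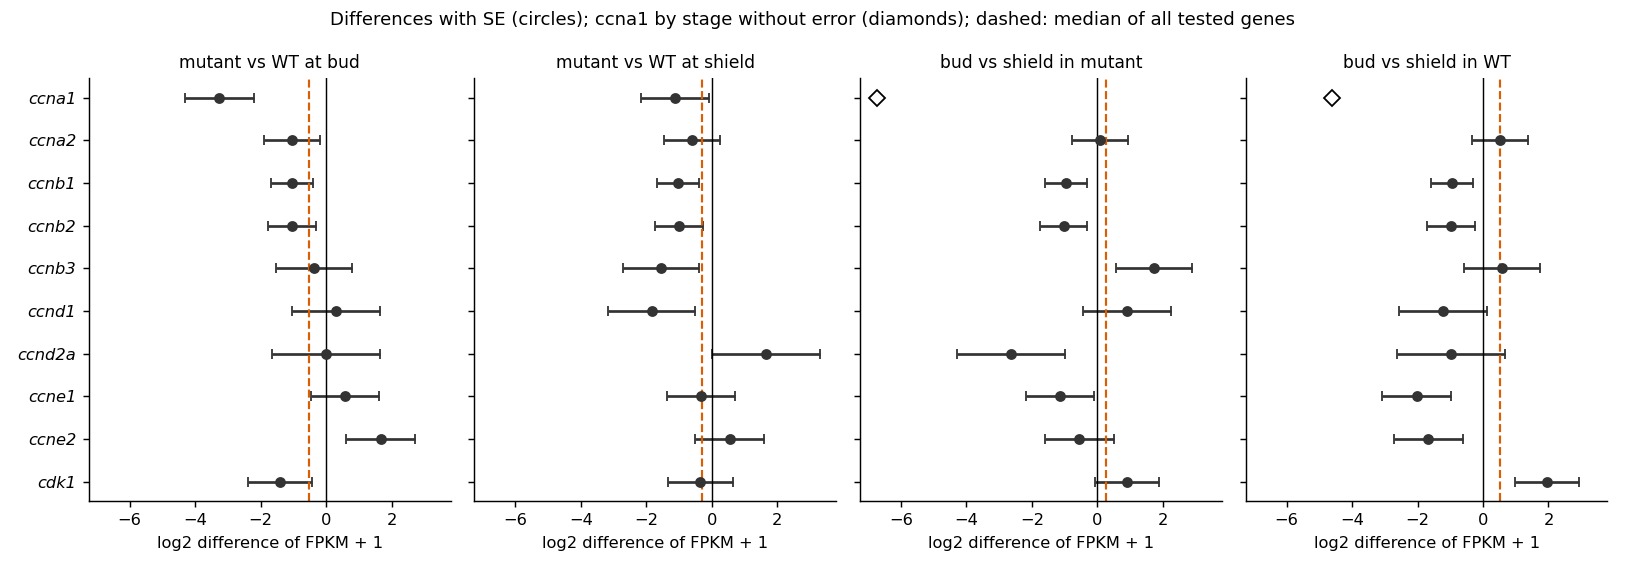
Differences of log2(FPKM + 1) for each gene in 4 comparisons, with circles and bars for the estimate ± SE of the limma fit over 8 libraries, diamonds for the stage differences of ccna1 (no error shown, since it was chosen on them) and a dashed line at the median of all tested genes. In both genotype panels ccna1, ccna2, ccnb1, ccnb2, ccnb3 and cdk1 lie left of 0, as does the dashed line. In the WT stage panel cdk1 lies farthest to the right.

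Across comparisons, limma called none of the members. Over both stages 0 of 10 passed for genotype, with 0% of all genes called, and 2 of 10 (ccna1 and ccnb1, both lower) had an unadjusted p under 0.05, as did 4.27% of all genes. At bud 0 of 10 were called (background 0%) and ccna1 alone had an unadjusted p under 0.05 (4.84% of all genes). At shield 0 of 10 were called (0%) and 0 had such a p (1.44% of all genes). For bud against shield 0 of the 9 members other than ccna1 were called in the mutant (0%) or in WT (0%), and 0 had such a p (6.64% and 3.34% of all genes). The interaction called 0 of the 9 (0%), with 0 at that p (1.42%).

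Counts of libraries separated in FPKM were read against all genes. At both stages together, 3 of 10 members (ccna1, ccnb1 and ccnb2) were lower in the mutant without overlap, against 4.44% of tested genes, and 0 were higher, against 0.422%. At bud alone 5 of 10 were lower (28.9% of genes) and 1 was higher (8.19%). At shield 3 were lower (12.1%) and 1 was higher (4.25%). In WT, 6 of the 9 members other than ccna1 were lower at bud than at shield without overlap (9.86% of genes) and 2 were higher (29.1%). In mutant, 3 of the 9 (ccnb1, ccnd2a and ccne2) were lower (8.76%) and 0 higher (14.7%). The nearest values of bud and shield there were almost tied for ccne2 (45.76 and 45.77 FPKM) and close for ccnd2a (8.92 and 9.07). The members were chosen with results of these data known, and the genotype and stage comparisons share libraries.

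Other genes of the cell cycle were summarized by list. In WT the median bud minus shield difference of the 9 members was −0.98, against 0.51 over all tested genes, with 6 of 9 members and 31.1% of all genes below 0. Below 0 were 2 of 18 other cyclins (median 0.75), 5 of 15 partner kinases, activators and brakes (0.48), 3 of 10 genes of cyclin destruction (0.53) and 5 of 16 mitotic kinase and spindle checkpoint genes (0.96). Among transcription factors of the Rb and E2F families 2 of 16 were below 0 (0.90), and among DNA replication genes 11 of 20 (−0.17). limma called 0 genes of these lists. For the genotype over both stages the members had a median of −0.85 (7 of 10 below 0), against −0.42 over all genes (71% below 0). The other lists had −0.80 for other cyclins (15 of 18 below 0), −0.45 for partner kinases (14 of 15), −0.29 for destruction (7 of 10), −0.49 for mitotic genes (16 of 16), −0.31 for Rb and E2F genes (14 of 16) and 0.03 for replication genes (9 of 20). The largest counts below 0 thus lay in the mitotic list, in a comparison where most genes were below 0.

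The single genes described are some of those picked from these lists by smallest p, and none passed. Also picked but not described are ccnd2b, ccng2, cdk2, wee1, fzr1b, cul1b, bub1ba, ttk, rbl1, rbl2, e2f4 and tfdp1a. bub3, a spindle checkpoint protein, had 225 and 183.5 FPKM in mutant bud, against 175 and 107 in WT bud. At shield bub3 was listed at 0 and had 32.4 in mutant, against 12.7 and 29.5 in WT, so bud stood above shield in both genotypes (2.75 in WT, SE 1.35, limma adjusted p = 1). ccnf, a cyclin that serves as an F-box subunit of a ubiquitin ligase, had 76.8 and 32.4 in mutant bud, against 32.4 and 40.35 in WT bud, and 0.75 and 9.17 in mutant shield, against 1.29 and 17.4 in WT shield. Its WT stage difference was 2.52 (SE 1.43, adjusted p = 1). cks2, a small subunit of Cdk complexes, was listed at 0 in the 4 shield libraries and in mutant bud replicate 1, had 1.49 in mutant bud replicate 2, and had 13.2 and 8.25 in WT bud. A separate entry spelled CKS2 was not used here.

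The other genes named came from the replication, mitotic and destruction lists. cdc6, which loads the replicative helicase, had 55.3 and 66.4 FPKM in mutant bud, against 20.96 and 17.6 in WT bud, and 25.5 and 148 in mutant shield, against 74.7 and 185 in WT shield (WT bud minus shield −2.55, SE 1.05, limma adjusted p = 1). birc5b, a survivin gene of the passenger complex, had 55.1 and 5.32 in mutant bud, against 15.2 and 22.5 in WT bud. At shield birc5b had 25.5 and 84.5 in mutant, against 196 and 71.5 in WT (WT stage difference −2.62, SE 1.22, adjusted p = 1). fbxo5, the inhibitor of the anaphase-promoting complex, had 24.8 and 27.1 in mutant bud, against 66.2 and 42.6 in WT bud, and 65.4 and 128 in mutant shield, against 84.6 and 147.5 in WT shield. It was lower at bud than at shield in both genotypes without overlap. orc6, of the origin recognition complex, had 1.05 and 75.1 in mutant bud, against 129 and 159.5 in WT bud, and 89.6 and 383.5 in mutant shield, against 185 and 360.5 in WT shield (genotype over both stages −2.00, SE 0.93, adjusted p = 0.983).

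Over the 8 libraries the genes most like ccna1 in log2(FPKM + 1), among 7221 named genes with a mean FPKM of at least 5, were cdca8 (Pearson's r 0.996, Spearman's rho 0.976), cldng (r 0.985, rho 0.952) and larp6b (r 0.985, rho 0.833). cdca8, the borealin subunit of the chromosomal passenger complex, had 47.8 and 66.6 FPKM in mutant bud, against 93.05 and 83.3 in WT bud, and 129 and 155 in mutant shield, against 152 and 169 in WT shield. Its range was narrower than that of ccna1, and its shield genotypes overlapped. cldng, a claudin of tight junctions, was listed at 0 and had 8.16 in mutant bud, against 52.7 and 29.55 in WT bud, and had 294 and 268 in mutant shield, against 549 and 404 in WT shield. larp6b, a La-related RNA-binding protein, had 0.92 and 5.57 in mutant bud, against 16.4 and 15.8 in WT bud, and 65.3 and 79.7 in mutant shield, against 71.5 and 65.0 in WT shield. In all, 68 genes had an r above 0.9, and the libraries share stage and genotype, so these values describe likeness only.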

How the data were processed

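The deposited table holds FPKM, 1 column for each of 8 libraries. The build danRer11 and the tools Cufflinks 2.2.1, STAR 2.5.3a and Trim Galore are named in the submitters' processing notes, while the annotation and the handling of multiply aligned reads are not given in the sources used here. FPKM carry no read counts and their low values showed no common step, so depth is unknown and no counting interval is given. The table has 31934 entries. For 545 symbols with several entries the one with the highest mean was kept, and 2 entries with missing values were dropped. Genes are named by symbol alone, with no coordinates.

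Values were taken as log2(FPKM + 1). The 13984 genes that reached FPKM 1 in 2 or more libraries entered one limma-trend fit of 4 group means (limma 3.58.1, R 4.3.3). Residual degrees of freedom were 4. The p-values and intervals rest on 15.36, which includes those that limma borrows across genes. Tests were two-sided, with Benjamini-Hochberg adjustment over all tested genes and a threshold of 0.05. The fit was tested on simulated data with 200 changed genes. Their changes were larger than any tested difference of the members in the main fit, so that check says nothing about power for the members. Of the other lists, up to 2 genes with the smallest p for the genotype over both stages and up to 2 for bud against shield in WT could be named. The members and lists were chosen with earlier results of these data known. The alternatives changed pseudocount, filter, scaling, merging of entries, a replicate block and the libraries included. Plots used matplotlib 3.10.9 in Python 3.11.15.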

Additional observations from a re-analysis of the deposited data

How the results depend on the processing

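Depth is unknown, and with 2 pools a group the error of a single gene is wide (SE 0.64 to 1.65 for the members at 1 stage). The genotype differences of ccna1, ccnb1 and ccnb2, lower in mutant, kept their sign under every alternative run. Those of ccne2, higher in mutant, did so too. Counts of all genes called, 0 throughout, became 1 over both stages with the filter at FPKM of 5, without mitochondrial entries and with the replicate block, and 1 for the interaction with the replicate block. For bud against shield in mutant they became 3 with the filter, 8 with median-of-ratios scaling, 7 with quantile normalization, 8 without mitochondrial entries and 5 with the replicate block. The block called none of the members tested. Replicate numbers were not taken to pair the samples, since the labels do not tie them to a shared day or animal. Correlations of same-numbered deviations were −0.01 to 0.33, and over 0.1 in 3 of 6 pairs of groups. Replicate 1 also had fewer genes at FPKM of 1 and a larger mitochondrial share than replicate 2 in all 4 groups. Whether same-numbered replicates share a batch was not tested. Leaving out 1 library gave 0 to 2 calls at shield, 0 to 3 over both stages, 0 to 1 for stage in WT and 0 to 195 for stage in mutant, the last without mutant shield replicate 2. Replicate 1 of mutant shield and replicate 2 of mutant bud were also left out together. In that setting 237 of 13325 genes (1.78%) were called at bud, among them 1 member, ccna1. Leaving out this pair makes each mutant group a single library, so the spread within the mutant groups was not measured there. The mutant bud library that remains lists ccna1 and 53 well-expressed genes at 0.

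Several differences turned sign, none of them called. Without that pair of libraries they were, at shield, 0.55 for ccna2, 0.52 for ccnd1, 0.27 for ccne1 and 0.80 for cdk1. At bud they were 0.41 for ccnb3 and −0.78 for ccnd1, and over both stages 0.0468 for ccna2 and 0.14 for ccnb3. By stage in mutant they were −0.48 for ccna2, −2.52 for ccnd1 and −0.42 for cdk1. With median-of-ratios scaling ccne1 at shield was 0.0167, ccnd2a at bud 0.20 and ccna2 by stage in mutant −0.58. Quantile normalization gave cdk1 at shield 0.0376, ccnd2a at bud 0.86, and by stage in mutant −0.56 for ccna2 and −0.064 for ccnd1. Without mitochondrial entries ccne1 at shield was 0.0012 and ccna2 by stage in mutant −0.63. A pseudocount of 5 gave ccnd2a at bud 0.22. Leaving out 1 library turned further signs. At shield the ranges were −1.75 to 0.55 for ccna2, −4.18 to 0.52 for ccnd1, −0.93 to 0.27 for ccne1 and −1.49 to 0.80 for cdk1. At bud they were −1.16 to 0.41 for ccnb3, −0.78 to 1.37 for ccnd1, −1.66 to 1.65 for ccnd2a and −0.60 to 1.73 for ccne1. Over both stages they were −1.94 to 0.41 for ccnd1, −0.0042 to 1.65 for ccnd2a and −0.46 to 0.70 for ccne1 (1.0008 with the pair left out), while ccna2 (−1.39 to −0.24) and ccnb3 (−1.66 to −0.25) kept their sign. By stage in mutant they were −1.07 to 1.23 for ccna2, −1.45 to 3.26 for ccnd1, −2.29 to 0.0305 for ccne1 and −0.25 to 2.04 for cdk1. The cause was not tested.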

Other observations

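rrm2, the small subunit of ribonucleotide reductase that supplies DNA precursors, has a pair of entries in the table, and their genotype differences had opposite signs. The more abundant entry had 40.1 and 107 FPKM in mutant bud, against 142 and 101 in WT bud, and 84.6 and 255 in mutant shield, against 338 and 587 in WT shield. The other entry had 55.1 and 138 in mutant bud, against 0.89 and 0.0692 in WT bud, and 51.6 and 102 in mutant shield, against 1.60 and 1.92 in WT shield. With every entry kept as a row of its own (14179 rows, an alternative chosen after seeing the data), the genotype difference (mutant minus WT, both stages, limma) had the value −1.22 (SE 0.61, adjusted p = 0.984) for the more abundant entry and 5.35 (SE 0.93, unadjusted p = 3.601e-05, adjusted p = 0.255) for the other. All 4 mutant libraries were above all 4 WT libraries for the other entry, and it did not pass the test. The table gives no coordinates that would tell the entries apart, and rrm2 was singled out after its values were seen.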
